A study of Mus musculus with 18 samples.

Results

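The LPS response of TLR4-WT peritoneal macrophages was read from 6 of the 18 RNA-seq libraries of the study, the 3 mock-treated and the 3 LPS-treated libraries that carry the wild-type genotype in their labels. It is described here across all genes. The mice were TLR4-WT, and the study names C57BL/6 as the background on which the mutant lines were made and crossed. Age and sex of the mice used for RNA-seq are not given in the sources used here. The cells were lavaged from the peritoneal cavity after an injection of thioglycolate medium, an irritant that draws monocytes from the blood, so both groups share that stimulus. The treated cells received LPS at 100 ng/ml for 6 h, and the labels name the untreated cells only as control. The labels do not say whether the 3 libraries of a group came from separate mice. The p-values thus measure the spread between libraries within groups, taken from all 18 libraries, mutants included, and this spread may be technical. In bulk RNA, fewer cells of a type and less RNA per cell cannot be told apart.

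The deposited values are FPKM of transcript events, such as first exons and last exons. First-exon FPKM and last-exon FPKM were each added up per gene and library, and the larger total stands for the gene. An event without expression has no row, so a gene can be listed at 0 although it is expressed, and the read depth is unknown. A log2 change is the difference, LPS minus mock, of the mean log2(FPKM + 1) over 3 libraries per group, given with its standard error (SE), and it understates the change of low genes. Where a gene is said to have risen or fallen by a number, the number is this log2 change. Genes with an adjusted p below 0.01 by limma are called higher or lower.

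LPS, a glycolipid of the outer membrane of Gram-negative bacteria, is recognised by TLR4 together with its partner MD-2. At the plasma membrane TLR4 signals through MAL and MyD88 to NF-κB and AP-1, which switch on cytokine and chemokine genes, and from endosomes it signals through TRIF to IRF3, which switches on interferon-β. Secreted interferon-β then acts back on the macrophage through its receptor and JAK-STAT signalling, which acts on the interferon-stimulated response element of antiviral genes. Macrophages activated by LPS are also known for making nitric oxide and itaconate and for a changed lipid and mitochondrial metabolism.

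The promoters of 8 LPS-induced genes are shown because they carry, or lack, the letters of the 2 main elements of this pathway. Each run is the 250 bases before the transcription start from RefSeq on GRCm38.p6, written 5′ to 3′ on the strand of the gene. Capitals mark matches, on either strand, to the NF-κB consensus or to the interferon-stimulated response element (GAAA, any 2 bases, GAAA), and the genes were picked after the matches were known. The first 3 runs have only NF-κB matches, the next 3 have both elements, the seventh has only the interferon element, and the last has none.
Il6, chr5:30012864-30013113, plus strand: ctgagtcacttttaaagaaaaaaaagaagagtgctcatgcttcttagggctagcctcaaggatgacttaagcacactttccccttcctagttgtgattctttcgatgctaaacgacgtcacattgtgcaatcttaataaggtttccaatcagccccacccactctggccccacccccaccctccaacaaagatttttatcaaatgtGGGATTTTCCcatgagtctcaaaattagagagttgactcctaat
Cxcl1, chr5:90890995-90891244, plus strand: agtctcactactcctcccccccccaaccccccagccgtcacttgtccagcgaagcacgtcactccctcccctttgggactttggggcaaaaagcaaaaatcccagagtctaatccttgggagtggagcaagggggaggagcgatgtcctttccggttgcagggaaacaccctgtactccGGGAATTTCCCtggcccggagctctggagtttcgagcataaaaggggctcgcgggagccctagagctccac
Nfkbia, chr12:55492648-55492897, minus strand: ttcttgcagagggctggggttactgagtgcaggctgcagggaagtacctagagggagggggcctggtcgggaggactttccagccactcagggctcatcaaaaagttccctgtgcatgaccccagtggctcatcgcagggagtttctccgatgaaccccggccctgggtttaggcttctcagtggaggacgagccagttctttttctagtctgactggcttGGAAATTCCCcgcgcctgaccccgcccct
Cxcl10, chr5:92348890-92349139, minus strand: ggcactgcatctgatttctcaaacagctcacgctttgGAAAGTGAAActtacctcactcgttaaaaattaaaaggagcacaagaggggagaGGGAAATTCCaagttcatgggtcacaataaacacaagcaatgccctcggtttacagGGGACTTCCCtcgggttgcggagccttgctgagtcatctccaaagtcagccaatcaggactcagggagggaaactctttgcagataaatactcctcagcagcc
Gbp5, chr3:142496684-142496933, plus strand: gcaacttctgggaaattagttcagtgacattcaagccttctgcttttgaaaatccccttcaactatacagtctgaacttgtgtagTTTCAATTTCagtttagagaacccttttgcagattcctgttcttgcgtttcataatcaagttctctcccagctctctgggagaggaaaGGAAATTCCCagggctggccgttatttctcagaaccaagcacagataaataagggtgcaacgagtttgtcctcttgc
B2m, chr2:122147437-122147686, plus strand: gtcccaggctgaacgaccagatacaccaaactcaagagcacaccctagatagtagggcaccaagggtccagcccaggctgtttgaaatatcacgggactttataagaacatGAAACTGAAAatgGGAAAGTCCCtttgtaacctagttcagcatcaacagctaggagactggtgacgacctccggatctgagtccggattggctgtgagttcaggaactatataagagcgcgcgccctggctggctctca
Rsad2, chr12:26456453-26456702, minus strand: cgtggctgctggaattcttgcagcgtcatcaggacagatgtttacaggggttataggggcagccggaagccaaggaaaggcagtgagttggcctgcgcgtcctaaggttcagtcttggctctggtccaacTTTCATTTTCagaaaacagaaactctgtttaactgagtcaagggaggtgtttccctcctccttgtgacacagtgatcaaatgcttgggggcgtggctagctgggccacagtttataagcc
Tnf, chr17:35202008-35202257, minus strand: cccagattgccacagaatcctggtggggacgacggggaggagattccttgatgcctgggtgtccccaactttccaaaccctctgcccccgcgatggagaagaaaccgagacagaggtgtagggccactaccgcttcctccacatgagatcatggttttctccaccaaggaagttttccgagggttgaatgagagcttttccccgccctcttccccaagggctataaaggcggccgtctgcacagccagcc
The NF-κB match begins 44 bases before the start in Il6, 29 bases before it in Nfkbia and 77 bases before it in Gbp5, while Cxcl1 holds 2 overlapping matches at 71 and 70 bases and Cxcl10 holds 2 separate ones at 159 and 103 bases. The interferon element begins 213 bases before the start in Cxcl10, 165 in Gbp5, 139 in B2m and 120 in Rsad2. Of all 32851 promoters in the table, 3.90% hold the NF-κB consensus and 2.98% hold the interferon element in these 250 bases. A match describes the letters only, and the absence of one in Tnf says only that these letters are not in this window. The promoter table matched 228 of the 299 genes that rose by 2 or more on the log2 scale and 7703 of the 9707 genes tested. Motif shares over the raised genes are not compared here.

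LPS changed the expression of a large share of the genes tested. Of 9707 genes, 3328 (34.3%) were called, 1012 (10.4%) higher and 2316 (23.9%) lower after LPS. The rises were the larger changes: 299 genes rose by at least 2 on the log2 scale and 59 by at least 4, against 166 and 1 that fell by as much. The median log2 change was 1.37 among the called rises and -1.02 among the called falls. Over all genes tested it was -0.28, and scaling each library by its median ratio to the other libraries moved it to -0.02. After that scaling 1492 genes (15.4%) were higher and 1379 (14.2%) lower. All 1012 rises were called again, 1379 of the 2316 falls were, and 0 falls turned into called rises. Counts of calls in a list are therefore followed by the counts after this scaling where they differ. The 3 LPS libraries did not overlap the 3 mock-treated ones for 5343 genes (55.0%), among them 1004 of the 1012 called rises and 2306 of the 2316 called falls. Without the first library of each of the 6 groups of the series, mutants included, 1802 genes were called, 636 higher and 1166 lower. Without the second of each group 1998 were, 719 higher and 1279 lower. Leaving out a single TLR4-WT library gave 2725 to 3266 calls.

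**Figure D1:**
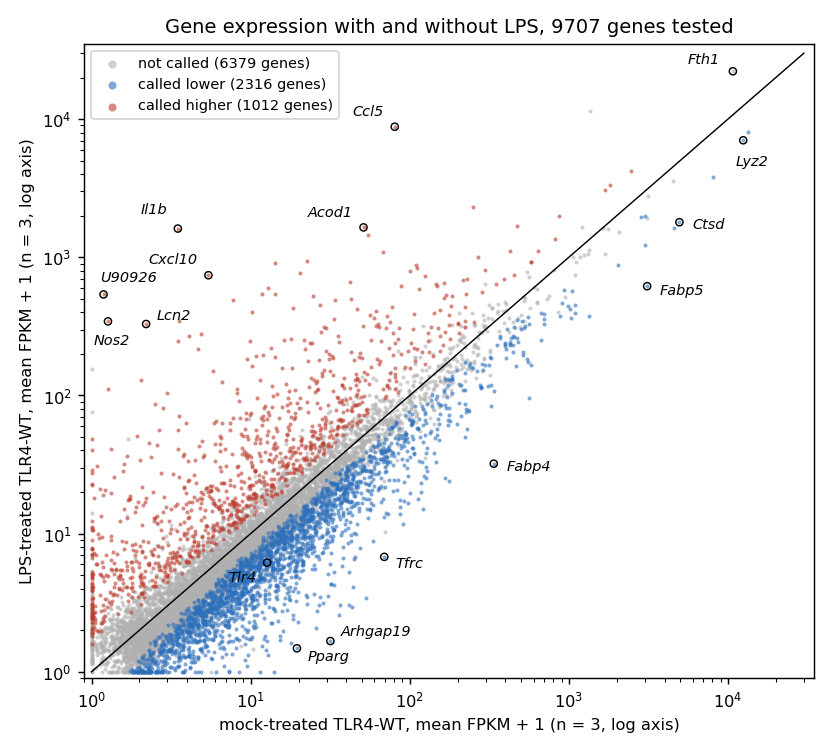
Mean FPKM + 1 of each gene tested in the 3 mock-treated (x axis) and the 3 LPS-treated (y axis) TLR4-WT libraries, both on log axes, with a point per gene coloured by whether it was called higher (1012), called lower (2316) or not called, and a line where both means are equal. Called rises reach far above the line, many of them at the left edge, listed near 0 FPKM without LPS, whereas called falls lie in a narrower band below it.

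Many induced genes were listed at or near 0 without LPS, in files that also list Cd14, a gene of macrophages, and the glycolytic gene Aldoa at 0 in all 6 libraries. Among the called rises, 157 were below 1 FPKM in every mock-treated library and 400 were above 10 FPKM in every one. Among the called falls, 267 were below 1 FPKM in every LPS library and 650 were above 10 FPKM in every one. The 100 genes of largest rise together held 0.282%, 0.335% and 0.263% of the summed FPKM in the mock-treated libraries and 9.51%, 9.89% and 8.79% after LPS. These genes were chosen for their rise, so their share is a description, with no test. All genes called higher went from a mean of 9.75% of the summed FPKM to 32.3%, and all genes called lower from 43.3% to 20.02%.

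**Figure D2:**
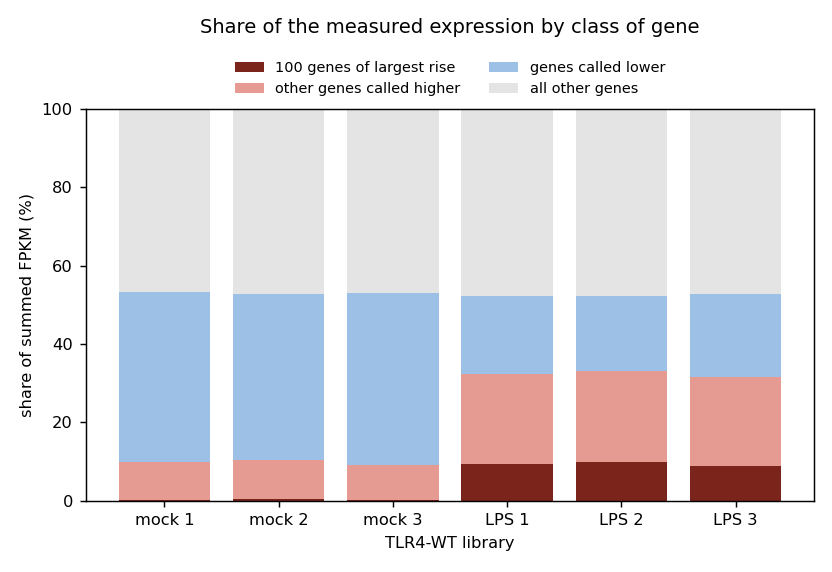
Share of the summed FPKM (y axis, percent) in each of the 6 TLR4-WT libraries (x axis), stacked by class: the 100 genes of largest rise, the other genes called higher, the genes called lower, and all other genes. The top 100 take 0.293% on average without LPS and 9.40% with it, while the genes called lower shrink from 43.3% to 20.02%.

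The order of the most abundant mRNAs changed. Without LPS the highest mean levels were those of Ftl1, the ferritin light chain, at 13318 FPKM, of Lyz2, lysozyme, at 12484 FPKM and of Fth1, the ferritin heavy chain, at 10749 FPKM. After LPS they were those of Fth1 at 22208 FPKM, of the acute-phase protein gene Saa3 at 11364 FPKM and of the chemokine gene Ccl5 at 8812 FPKM. Ccl5, which draws T cells and monocytes, thus became the third most abundant gene. It was listed at 80.2, 76.2 and 82.2 FPKM without LPS and 7818, 9272 and 9345 FPKM with it, from its last exons alone, and its share of the summed FPKM went from a mean of 0.0237% to 2.51%. Saa3 was listed at 1269, 1527 and 1253 FPKM without LPS and 12954, 12307 and 8830.4 FPKM with it. Its TLR4-WT groups did not overlap, yet it was not called (log2 change 3.06, SE 2.59, adjusted p = 0.351, limma) in the fit that takes the spread from all 18 libraries.

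The 20 largest rises, named by a fixed rule on size that also asked first and last exons each to move by at least 1 in the same direction, had log2 changes of 4.98 to 8.85. They included cytokines and chemokines (Il1b, Il1a, Cxcl10, Cxcl3, Cxcl1, Ccl7), interferon-induced genes (Isg20, Mx1, Rsad2, Gbp5, Ifi206, Slfn4), genes of arginine and itaconate metabolism (Nos2, Slc7a2, Acod1), and U90926, Tarm1, Upp1, Ms4a4c and AW112010. Tarm1, a receptor of myeloid cells, was listed at 2.13, 3.39 and 2.17 FPKM without LPS and 333, 353 and 345 FPKM with it. Upp1, uridine phosphorylase, which splits uridine into uracil and ribose phosphate, went from 0.0375, 0.6903 and 0.0936 to 134, 110.1 and 85.9 FPKM (log2 change 6.46, SE 0.23, adjusted p = 8.79e-12, limma). AW112010, a transcript once annotated as noncoding, went from 10.8, 12.6 and 9.004 to 867, 189 and 580.5 FPKM. First and last exons changed unequally in both Upp1 (log2 changes 6.47 and 3.86) and AW112010 (log2 changes 3.0003 and 5.29). The LPS libraries lay close together for Tarm1 and far apart for AW112010. That the groups do not overlap in these genes was part of the rule that chose them. Slfn4, Ms4a4c and Ifi206 belong to families of similar genes that can share reads, so their values are uncertain.

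The 20 largest falls had log2 changes of -3.02 to -4.26. After Arhgap19 and Daglb came the kinase gene Matk (log2 change -3.76) and Pparg (log2 change -3.76), the nuclear receptor that directs lipid storage in macrophages. Pparg, on chromosome 6, 115360951 to 115490399 of GRCm38, was listed at 18.8, 19.5 and 17.4 FPKM without LPS and 0.927, 0.176 and 0.332 FPKM with it. St6gal1, which adds sialic acid to glycoproteins, was listed at 17.4, 17.6 and 16.03 FPKM without LPS and 0.693, 0 and 1.16 FPKM with it. Both were thus close to 0 in every LPS library. Tfrc, the transferrin receptor that takes up iron, fell by 3.36 (SE 0.23, adjusted p = 7.8e-09, limma), and Epas1, which encodes HIF-2α, fell by 3.07. Lysosomal genes were among the 20: the hydrolases Galc (log2 change -3.25) and Sgsh (log2 change -3.13), the channel gene Tpcn1 (log2 change -3.23) and the transporter gene Slc46a3 (log2 change -3.300). Cnr2, the cannabinoid receptor of immune cells, was listed at 10.98, 11.98 and 11.4 FPKM without LPS and 0, 0.595 and 0.718 FPKM with it. Gdf15, a stress-induced secreted factor, had the largest error of the 20 (SE 0.88, adjusted p = 0.00919, limma) and was not called after scaling.

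**Figure D3:**
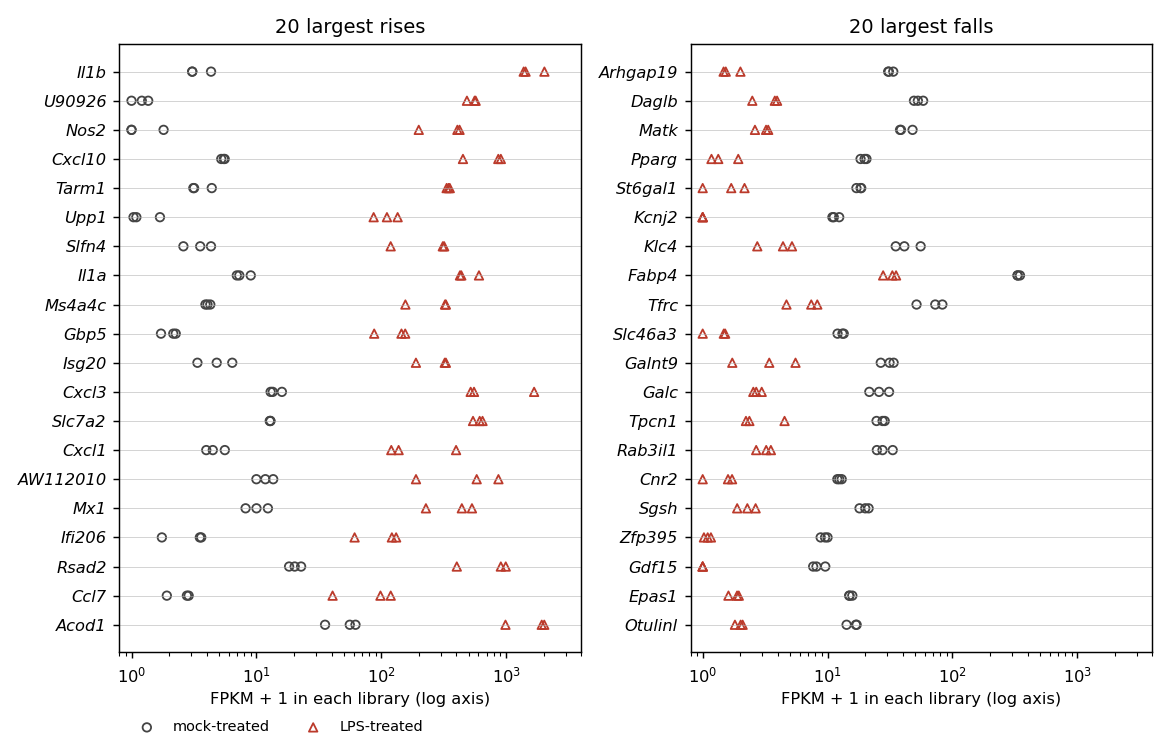
FPKM + 1 (x axis, log) of the 20 genes of largest rise and the 20 genes of largest fall (y axis) in each TLR4-WT library, with circles for the 3 mock-treated and triangles for the 3 LPS-treated libraries. The rule took only genes whose groups do not overlap, so the plot shows the size and spread of the changes: the Il1b circles stand at 2.06 to 3.34 FPKM and its triangles at 1383 to 2026 FPKM, and the Pparg triangles stand below 1 FPKM.

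Counts of list members are over those that passed the minimum of 1 FPKM in 3 of the 18 libraries, which a gene can pass through LPS libraries alone, as 550 of the 9707 genes tested were below 1 FPKM in every mock-treated library. They are read against the 10.4% of all genes tested that were called higher and the 23.9% called lower. Counts after scaling are read against 15.4% higher and 14.2% lower.

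Of the 29 Toll-like receptor and signalling genes tested, 7 rose and 5 fell (11 higher and 2 lower after scaling), with a median log2 change of 0.03 against -0.28 over all genes tested. Irak3, an inhibitor of the IRAK kinases, went from 12.7, 12.99 and 12.02 to 80.1, 79.2 and 85.5 FPKM (log2 change 2.61, SE 0.16, adjusted p = 2.76e-09, limma). Tlr2, the receptor of bacterial lipoproteins, went from 17.4, 18.9 and 17.8 to 63.2, 69.8 and 87.4 FPKM. The RNA receptors Tlr3 and Tlr7 rose with it, by 2.46 and 2.02. Tlr4 itself fell by 1.03 and Tlr13, a receptor of bacterial ribosomal RNA, by 1.09. Tab1 and Map3k7, subunits of the TAK1 kinase complex, fell by 0.69 and 0.49 but were not called after scaling.

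Genes of NF-κB and of its inhibitors rose in 13 of 22 tested and fell in 0 (15 higher and 0 lower after scaling), with a median log2 change of 0.87. Nfkbia, which encodes the inhibitor IκBα and holds the NF-κB match printed above, was listed at 58.97, 53.6 and 64.2 FPKM without LPS and 333, 359 and 392 FPKM with it. Nfkb2, the subunit of the alternative pathway, went from 16.4, 16.2 and 18.7 to 141, 151 and 178 FPKM. The libraries of each group lay close together in both genes. Traf1, an adaptor of TNF receptors, had the largest rise of the list (log2 change 4.38, SE 0.46, adjusted p = 1.04e-06, limma), and Tnip1, a partner of the inhibitor A20, rose by 2.57. Phosphatases and mRNA decay factors, which also restrain the response, rose in 7 of 15 and fell in 1. The RNases Zc3h12a and Zc3h12c rose by 2.18 and 2.25 and the MAP kinase phosphatase Dusp16 by 2.02, whereas Dusp3 fell by 2.08.

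AP-1 and early response factors stood at 5 higher and 5 lower of 18 tested (7 higher and 3 lower after scaling). Batf2, an interferon-induced factor, was listed at 2.71, 2.73 and 2.96 FPKM without LPS and 35.02, 38.5 and 35.7 FPKM with it. Fosl2, a partner of Jun proteins, went from 6.62, 7.77 and 7.12 to 27.3, 28.6 and 31.5 FPKM. Fos itself went the other way, from 45.1, 41.9 and 45.1 to 14.8, 14.3 and 16.7 FPKM. Batf3, a factor of dendritic cell development, fell to near 0 in the LPS libraries, from 5.83, 5.498 and 5.25 to 1.21, 0.258 and 0.442 FPKM. The groups did not overlap in any of these 4 genes, as in 55.0% of all genes tested and in nearly all called ones.

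Pro-inflammatory cytokines rose in 18 of 21 tested, of 23 listed, and fell in 0, with a median log2 change of 3.62. Il1b (chromosome 2, 129364570 to 129371139) and Il1a encode interleukin-1, and Il1a was listed at 6.301, 8.02 and 5.97 FPKM without LPS and 426, 437 and 606 FPKM with it. Il1rn, the natural antagonist of their receptor, rose with them, from 47.01, 63.97 and 49.6 to 1725, 1745 and 878 FPKM. Both the agonists and the antagonist thus were among the abundant mRNAs after LPS. Csf3, the granulocyte growth factor, was listed at 0 in every mock-treated library and 27.5, 25.9 and 64.03 FPKM in the LPS libraries (adjusted p = 3.27e-09, limma). Il12b, the subunit shared by interleukin-12 and interleukin-23, was listed at 0 in every mock-treated library and 10.1, 13.2 and 10.7 FPKM in the LPS libraries. No fold can be given for these 2 genes. Il15, a growth factor of natural killer cells, was listed at 5.23, 3.004 and 4.78 FPKM without LPS and 6.26, 10.3 and 2.54 FPKM with it and was not called (log2 change 0.34, SE 0.35, adjusted p = 0.459, limma).

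Chemokines rose in 18 of 24 tested, of 25 listed, and fell in 1 (18 higher and 0 lower after scaling), with a median log2 change of 2.99. Cxcl1, an attractant of neutrophils, was listed at 3.48, 4.59 and 2.97 FPKM without LPS and 137, 119 and 397 FPKM with it. Cxcl3, of the same family, went from 12.5, 15.02 and 12.01 to 553, 519 and 1676 FPKM. In both, the third LPS library was the highest. Cxcl10, an interferon-induced attractant of T cells, went from 4.23, 4.48 and 4.57 to 865, 907 and 450.4 FPKM, and there the third LPS library was the lowest. Ccl7, an attractant of monocytes, went from 0.919, 1.78 and 1.87 to 118, 97.6 and 39.8 FPKM. Ccl22, which attracts regulatory T cells, stayed low in level, going from 1.08, 0.838 and 0.711 to 7.57, 5.79 and 8.695 FPKM. Cxcl14 fell by 1.15 but was not called after scaling, and the platelet chemokines Pf4 and Ppbp were not called (log2 changes -0.50 and -0.08).

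Interferon-induced antiviral genes rose in 31 of 34 tested, of 36 listed, and fell in 0 (32 higher and 0 lower after scaling), with a median log2 change of 2.89. Isg20, an exonuclease of RNA, was listed at 5.41, 3.81 and 2.37 FPKM without LPS and 322, 329 and 189 FPKM with it. Rsad2, which encodes viperin and holds the interferon element printed above, went from 17.3, 21.8 and 19.3 to 907, 993 and 402 FPKM. Irf7, the factor that amplifies interferon production, was well expressed without LPS and went from 139.7, 74.6 and 117 to 889.8, 778 and 823 FPKM. Its groups did not overlap, as in nearly all called genes. The same held for Bst2, which tethers budding virions and went from 229, 122 and 141 to 619, 641 and 682 FPKM. The interferon-induced GTPases of cell-autonomous immunity, which act on vacuoles that hold microbes, rose in 7 of 7 tested, while 10 of the 17 listed had no value that could be tested. Gbp5, with both elements in its promoter, was listed at 1.16, 0.723 and 1.26 FPKM without LPS and 155, 144 and 86.8 FPKM with it. Gbp2 went from 12.4, 15.5 and 12.02 to 597, 601 and 429 FPKM. Iigp1, an immunity-related GTPase, was listed near 0 in every mock-treated library and went from 0.251, 0.162 and 0 to 25.8, 17.7 and 16.2 FPKM. Guanylate-binding proteins are similar to each other and can share reads, so single members are uncertain.

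Cytokine receptors with the JAK, STAT and SOCS genes below them stood at 8 higher and 8 lower of 28 tested (11 higher and 3 lower after scaling). Jak2, a kinase of many cytokine receptors, was listed at 7.24, 7.97 and 4.11 FPKM without LPS and 57.1, 63.3 and 44.7 FPKM with it. The receptor chains Il4ra, Tnfrsf1b and Il1r1 rose by 1.86, 1.42 and 1.24. Ifngr1, a chain of the interferon-γ receptor, fell, from 66.8, 39.5 and 61.8 to 17.03, 17.9 and 20.02 FPKM. Il6st, the signalling chain gp130 of the interleukin-6 family, went from 39.1, 17.2 and 17.9 to 5.36, 5.03 and 7.21 FPKM. It was not called after scaling, and nor was Csf1r, the receptor of the macrophage growth factor, which went from 538, 497 and 479.6 to 334, 315 and 385 FPKM.

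MHC class I genes and the immunoproteasome, which make and display peptides to CD8 T cells, rose in 17 of 21 tested and fell in 0 (18 higher and 0 lower after scaling), with a median log2 change of 1.74. Tap1, a subunit of the peptide transporter, was listed at 23.4, 32.9 and 21.4 FPKM without LPS and 152, 198 and 187 FPKM with it. B2m, the light chain, was already abundant and went from 2446, 2800.2 and 2097 to 4559, 4629 and 3413 FPKM, a log2 change of 0.78. H2-K1, a classical heavy chain, rose by 0.77, but by last exons alone its log2 change was -0.034, and H2-D1, the other one, was not called (log2 change -0.17). The nonclassical H2-T22 and H2-Q7 rose by 2.73 and 2.402, but class I heavy chains are similar and can share reads.

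Of 12 MHC class II genes tested, 0 were called higher and 3 lower (0 higher and 2 lower after scaling). The share of falls, 25%, was close to the 23.9% over all genes tested, and the share of rises lay below the 10.4%. Ciita, the master regulator of class II genes, fell by 1.16, and Ifi30, a thiol reductase of antigen processing, went from 538, 515 and 596 to 178, 179.6 and 166 FPKM. H2-Ab1, a class II chain, was not called (log2 change 0.29). Costimulatory and adhesion molecules rose in 11 of 16 and fell in 1 (14 higher and 1 lower after scaling). Cd40, the partner of CD40 ligand on T cells, was listed at 9.096, 4.36 and 8.897 FPKM without LPS and 82.9, 108 and 81.2 FPKM with it. Cd274, which encodes the inhibitory ligand PD-L1, went from 43.3, 53.5 and 40.3 to 438, 457 and 369 FPKM. In both genes the groups lay far apart. Vcam1, which binds integrins of lymphocytes, went from 0.691, 1.101 and 0.916 to 15.99, 13.5 and 14.3 FPKM, and Itgax, the integrin CD11c, fell by 1.201.

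Enzymes and carriers of arginine, nitric oxide and itaconate metabolism rose in 8 of 13 tested and fell in 2 (9 higher and 2 lower after scaling). Nos2, inducible nitric oxide synthase, was listed at 0, 0 and 0.807 FPKM without LPS and 406, 423 and 199 FPKM with it. Slc7a2, which imports its substrate arginine, went from 11.8, 11.9 and 11.9 to 613, 543 and 646 FPKM. Acod1, which makes itaconate from a TCA cycle intermediate, went from 34.5, 61.2 and 54.998 to 1929, 2020.0 and 988 FPKM. Nos2 was thus listed at or near 0 without LPS, whereas the importer and Acod1 were listed well above 0. Slc7a11, the cystine importer, rose by 3.23. Asl, which regenerates arginine, and Spr, of cofactor synthesis, fell by 0.93 and 0.97.

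Genes of prostaglandin and leukotriene synthesis divided, 4 higher and 10 lower of 18 tested (5 higher and 8 lower after scaling). Ptgs2, cyclooxygenase 2, was listed at 0.903, 0.637 and 0.477 FPKM without LPS and 35.6, 36.6 and 33.6 FPKM with it. Ptges, the inducible synthase of prostaglandin E2, went from 14.6, 34.5 and 16.2 to 1120.2, 998 and 684 FPKM. Pla2g4a, the phospholipase that releases arachidonic acid, rose by 1.695. These 3 rises lie on the path to prostaglandin E2. Hpgds, which makes prostaglandin D2, fell, from 14.8, 16.2 and 13.4 to 1.76, 2.12 and 1.33 FPKM. On the leukotriene branch, Ltc4s, leukotriene C4 synthase, went from 12.5, 13.4 and 12.4 to 1.64, 2.59 and 1.42 FPKM. Alox5ap, the activator of 5-lipoxygenase, went from 257, 319.9 and 395 to 129, 97.5 and 129.8 FPKM. The groups did not overlap in any of these 6 genes, as in 55.0% of all genes tested and in nearly all called ones.

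Metal handling and secreted antimicrobial genes rose in 7 and fell in 4 of 22 tested (10 higher and 3 lower after scaling). Mt2, a metallothionein that binds zinc, was listed at 9.75, 9.62 and 10.3 FPKM without LPS and 114, 98.7 and 74.4 FPKM with it. Lcn2, which binds bacterial siderophores, rose by 7.21, and Camp, an antimicrobial peptide also made by neutrophils, by 2.09. The ferritin chains parted. Fth1 was listed at 9374, 9945 and 12927 FPKM without LPS and 23021, 24516 and 19086 FPKM with it and was called only after scaling. Ftl1 went from 11667, 11132 and 17155 to 9053, 6499 and 8510.4 FPKM and was called lower (log2 change -0.72), and it was not called after scaling. The summed FPKM of 10 neutrophil markers was 85.7 to 102 in the mock-treated and 300.1 to 380.0 in the LPS libraries, mostly from S100a8, Csf3r and Mmp9, with Cxcr2, Ly6g, Ngp and Mpo not listed or at 0 in all 6. Of the 6 markers tested 3 rose, S100a8, Mmp9 and Camp, and 1 fell (4 higher and 1 lower after scaling), Retnlg, which was listed at 0 in every LPS library. The part of such cells in the antimicrobial genes was not tested.

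Cell death and inflammasome genes rose in 16 of 22 and fell in 2 (16 higher and 1 lower after scaling). Nlrp3, the sensor of the best known inflammasome, was listed at 4.93, 5.97 and 5.44 FPKM without LPS and 55.6, 45.3 and 49.5 FPKM with it. Casp4 (caspase-11), which binds LPS in the cytosol, went from 7.23, 9.32 and 8.62 to 79.8, 80.4 and 59.1 FPKM. The pore proteins of pyroptosis and necroptosis, Gsdmd and Mlkl, rose by 1.17 and 2.89. Bcl2a1d, a survival gene with near-identical copies, was listed at 0 in every mock-treated library and 89.3, 29.02 and 24.1 FPKM in the LPS libraries. The genes that fell were Pycard, the adaptor ASC (log2 change -0.76, not called after scaling), and Bcl2l11, the death-promoting protein BIM (log2 change -1.51).

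Many genes of lipid metabolism fell. Of 28 genes of fatty acid oxidation and lipid storage tested, 19 fell (2 higher and 15 lower after scaling) and 1 rose, the highest share of falls among the 35 lists, with a median log2 change of -1.001. Fabp4, a fatty acid binding protein and known target of PPARγ, was listed at 331, 346 and 332 FPKM without LPS and 34.4, 32.04 and 26.9 FPKM with it. Fabp5, of the same family and far more abundant, went from 3142, 3007 and 3173 to 621, 612 and 618 FPKM. Lipa, the lysosomal lipase, went from 553, 617 and 512 to 95.8, 97.2 and 90.3 FPKM (log2 change -2.55, SE 0.12, adjusted p = 1.2e-10, limma). The 3 libraries of each group lay close together in these genes. Lpl, lipoprotein lipase, and Cd36, the fatty acid transporter, fell by 1.499 and 1.16. The gene that rose was Acsl1, which activates long-chain fatty acids, from 21.5, 23.4 and 17.6 to 201, 214 and 231 FPKM.

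Genes of cholesterol synthesis, uptake and efflux fell in 16 of 30 (2 higher and 12 lower after scaling) and rose in 2, with a median log2 change of -0.80. Dhcr7, an enzyme at the end of synthesis, was listed at 26.3, 19.5 and 50.8 FPKM without LPS and 3.81, 2.11 and 3.89 FPKM with it. Sqle, squalene epoxidase, fell by 1.45, and Npc1, which exports cholesterol from lysosomes, by 1.56. Abca1, the exporter of cholesterol from the cell, rose by 1.21, and Npc2, the soluble partner of Npc1, by 0.75. Apoe was listed at 3614, 2121 and 3522 FPKM without LPS and 1366, 2248 and 2138 FPKM with it and was not called.

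Lysosomal hydrolases and the proton pump fell in 25 of 48 tested (4 higher and 19 lower after scaling) and rose in 3, with a median log2 change of -0.75. Relative to the mock mean, the median of the list was -0.69, -0.68 and -0.69 in the 3 LPS libraries. Ctsd, cathepsin D, was listed at 5016, 4743 and 5108 FPKM without LPS and 1704, 1834 and 1841 FPKM with it. Psap, the precursor of the saposins that help degrade sphingolipids, went from 8079, 7716 and 8285 to 3809.7, 3886 and 3742 FPKM. These are among the most abundant genes of the mock-treated cells. Atp6v0d2, a subunit of the pump, went from 166, 189 and 142 to 26.2, 26.9 and 19.4 FPKM. Tfeb, a factor that turns on lysosomal genes, went from 34.1, 43.4 and 42.01 to 7.83, 6.76 and 7.92 FPKM. Ctsc, cathepsin C, which activates serine proteases, went the other way, from 85.3, 91.1 and 75.02 to 285, 259 and 216 FPKM. Autophagy genes fell in 13 of 28 and rose in 1 (4 higher and 6 lower after scaling). Atg7 and Ulk1, the kinase that starts autophagy, fell by 1.67 and 1.08, while the cargo receptor Tax1bp1 rose by 0.83.

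Of 24 genes of the TCA cycle list, which holds mitochondrial enzymes and their cytosolic relatives, 13 fell (1 higher and 10 lower after scaling) and 0 rose, with a median log2 change of -0.52. Idh1, the cytosolic isocitrate dehydrogenase, was listed at 115, 129 and 108 FPKM without LPS and 20.6, 17.9 and 28.3 FPKM with it. Idh2, its mitochondrial relative, went from 34.8, 27.5 and 31.9 to 9.34, 4.23 and 9.94 FPKM. Mdh1, cytosolic malate dehydrogenase, and Idh3g fell by 1.58 and 1.21. Respiratory chain subunits fell in 14 of 43 and rose in 0 (1 higher and 2 lower after scaling), and cytosolic ribosomal proteins fell in 15 of 46 and rose in 0 (0 higher and 3 lower after scaling). Their median log2 changes were -0.49 and -0.50. Rps4x had the largest fall among the ribosomal protein genes (log2 change -1.65). Genes of the mitochondrial ribosome fell in 4 of 31 (1 higher and 2 lower after scaling).

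Glycolysis did not move as a whole, with 4 of 20 genes higher and 6 lower (5 higher and 5 lower after scaling). Pfkfb3, which makes an activator of phosphofructokinase, was listed at 23.8, 24.2 and 10.8 FPKM without LPS and 91.4, 131 and 61.4 FPKM with it. Slc2a6, a hexose transporter, rose by 2.16 and Hk2, a hexokinase, by 0.80. Pdk1, which slows the entry of pyruvate into the TCA cycle, fell by 1.56. Ldha and Eno1 were not called (log2 changes 0.09 and 0.14). The ends of Gapdh are listed only in part in these files, and it is not read here.

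Receptors for the uptake of particles stood at 11 higher and 8 lower of 24 tested (11 higher and 6 lower after scaling). Clec4e, which binds mycobacterial glycolipids, was listed at 60.3, 83.8 and 55.7 FPKM without LPS and 1058, 1222 and 976 FPKM with it. Fcgr1, the high-affinity Fc receptor for IgG, went from 51.2, 51.7 and 47.4 to 314, 412 and 228 FPKM. Mrc1, the mannose receptor, fell, from 26.7, 29.6 and 24.4 to 6.37, 6.19 and 6.09 FPKM. Scarb1, which binds HDL, fell by 1.33. Complement genes fell in 5 of 14 (2 higher and 2 lower after scaling) and rose in 1, Serping1 (log2 change 1.63), the C1 inhibitor. Genes of alternative activation did not move together. Of 15 tested 4 rose, among them Tgm2 (log2 change 2.14), and 4 fell, among them Mrc1 and the lectin Clec10a (log2 change -1.64).

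The remaining lists held few or mixed calls, with shares of falls of 2.78% to 27.8% against 23.9% over all genes tested. DNA replication and cell cycle genes rose in 5 of 36, among them the cyclins Ccnd2 and Ccnd3 (log2 changes 2.15 and 2.097), and fell in 1 (6 higher and 1 lower after scaling), Pcna (log2 change -1.204), the clamp of DNA polymerase. DNA repair genes fell in 6 of 29 (20.7%), close to the share over all genes tested, and rose in 0 (0 higher and 4 lower after scaling). The falls included the checkpoint kinase Chek2 (log2 change -1.56) and Parp1 (log2 change -1.29). Of 27 histone deacetylase and lysine acetyltransferase genes, 1 rose, Hat1 (log2 change 1.06), and 7 fell (3 higher and 5 lower after scaling). Their share of falls, 25.9%, was also close to that over all genes tested. Hdac6 (log2 change -1.28) and Sirt3 (log2 change -1.15) were among the falls. Hdac1, a deacetylase examined in the study, was listed at 13.6, 15.9 and 14.96 FPKM without LPS and 26.4, 16.2 and 33.7 FPKM with it and was called only after scaling. Antioxidant genes stood at 5 higher and 5 lower of 22 (8 higher and 3 lower after scaling). Gpx1, a peroxidase that uses glutathione, went from 1275, 1222 and 1494 to 366, 383 and 375 FPKM, and Prdx5, another peroxidase, rose by 1.81. Actin and migration genes rose in 7 of 30, among them Zyx (log2 change 1.86), of focal adhesions, and fell in 1 (11 higher and 1 lower after scaling). Genes of the unfolded protein response rose in 1 and fell in 4 of 24 (4 higher and 3 lower after scaling). Of the 18 lineage and chemotactic receptor genes, 0 rose and 5 fell, among them the repressor Bhlhe40 (log2 change -1.63), while after scaling 2 were higher and 1 lower.

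**Figure D4:**
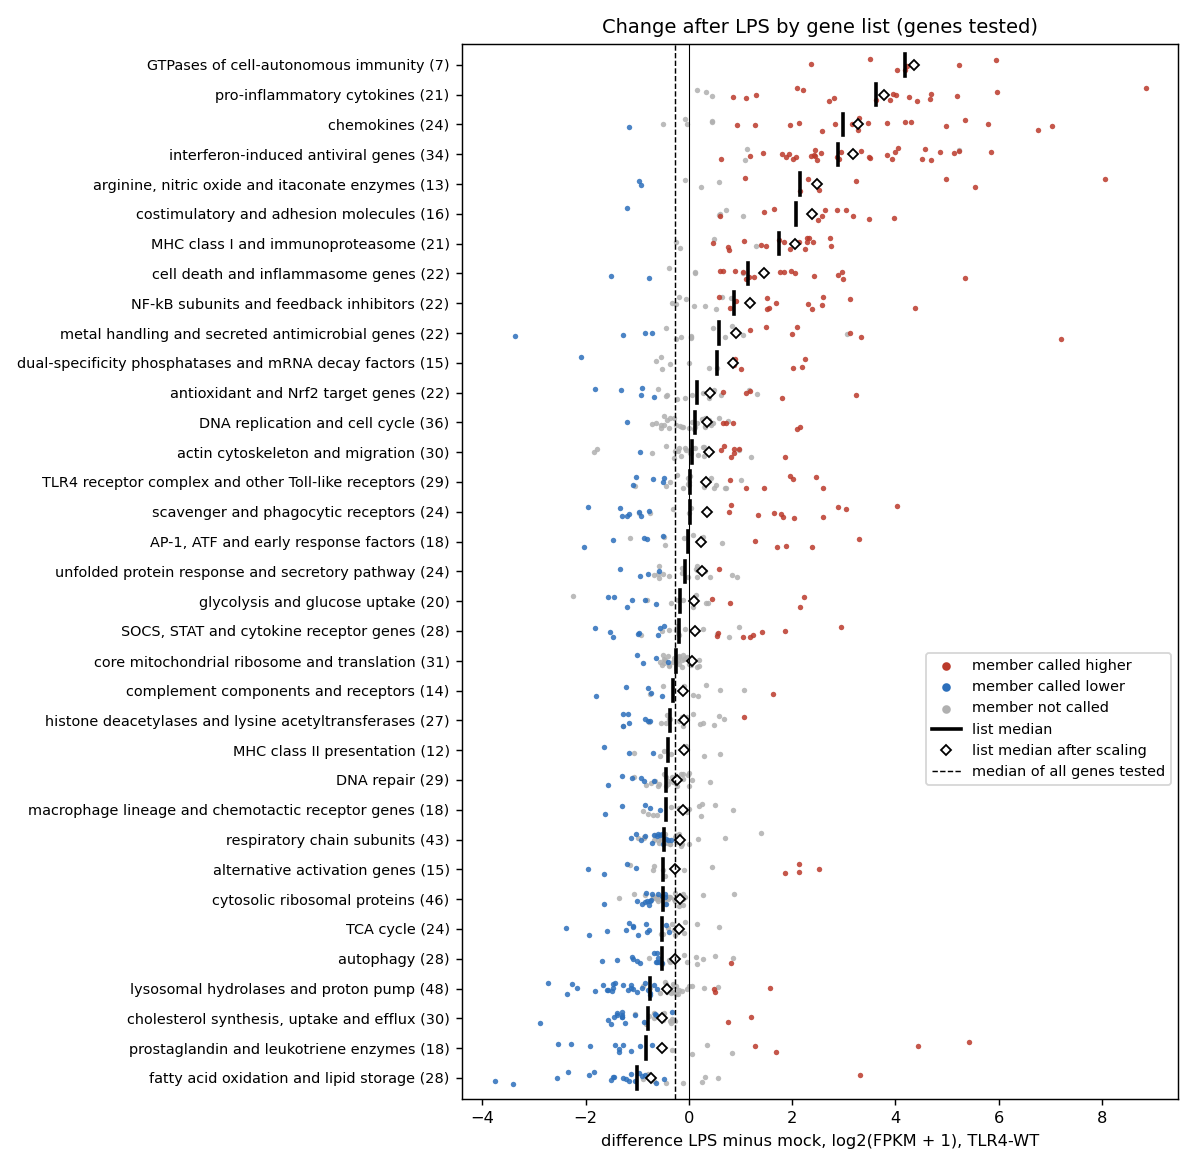
Log2 change after LPS (x axis, LPS minus mock on the log2(FPKM + 1) scale) of every tested member of 35 gene lists (y axis, number tested in brackets), with a point per gene, the list median as a bar, the median after scaling as a diamond and the median of all genes tested, -0.28, as a dashed line. Cytokines, chemokines, interferon-induced genes, MHC class I and the GTPases, at a median of 4.18, lie to the right, MHC class II and prostaglandin and leukotriene enzymes lie left of the dashed line, and so do the lipid and lysosomal lists, with fatty acid oxidation at -1.001.

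Some genes could be valued only when transcript events filed under another gene number were reassigned by their position, a step chosen after the data were seen. Hif1a, the oxygen-regulated factor that LPS is known to induce, was then listed at 15.5, 19.98 and 15.4 FPKM without LPS and 83.9, 102 and 92.3 FPKM with it (log2 change 2.39, SE 0.16, adjusted p = 5.74e-09, limma). AA467197, a gene of a small mitochondrial protein, was listed at 1.61, 1.69 and 0.774 FPKM without LPS and 620.3, 566 and 318 FPKM with it. Nfkbie, another inhibitor of NF-κB, was listed at 11.3, 11.5 and 11.3 FPKM without LPS and 35.97, 43.6 and 41.7 FPKM with it. These 3 genes add to the programs above, with groups far apart. Ifng was listed at 0 in every mock-treated library and 1.63, 1.32 and 2.799 FPKM in the LPS libraries. Stat4 was listed at 0, 0.05602 and 0.0892 FPKM without LPS and 0.668, 1.54 and 0.0717 FPKM with it, below the level tested and with the third LPS library among the mock-treated ones. Sod2, the mitochondrial superoxide dismutase, did not overlap between the groups, from 64.8, 65.1 and 44.96 to 251, 189 and 263 FPKM. It missed the threshold (log2 change 1.99, adjusted p = 0.0163, limma) and was called only after scaling (adjusted p = 0.00585, limma). Cd74, the class II chaperone, was not called (log2 change -0.08).

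Some genes of large rise lay near each other. Of the 299 genes that rose by at least 2, 79 (26.4%) lay within 100 kb of another such gene, in 33 groups. Of the 166 genes that fell by at least 2, a shorter list in which neighbours are met less easily, 13 (7.83%) did, in 6 groups. Among all genes tested, 88.7% had another tested gene within this distance, and whether the genes of large change lie closer together than other genes was not tested. The groups named next were chosen after their values were seen. Ifi206, Ifi214, Ifi213, Ifi209 and Ifi208 lay on chromosome 1 from 173468485 to 173698395 and rose by 3.39 to 5.14. Ccl5, Ccl9, Ccl3, Ccl4 and Wfdc21 lay on chromosome 11 from 83525778 to 83752642 and rose by 2.82 to 6.77. Ifit2, Ifit3, Ifit3b and Ifit1 lay on chromosome 19 from 34550694 to 34650009 and rose by 3.49 to 4.52. Each of these groups holds copies of a gene family, whose members can share reads.

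The LPS libraries differed among themselves, and the genes named for this were chosen after their values were seen. The third library was the lowest for Mx1, a dynamin-like antiviral GTPase, at 441, 532 and 227 FPKM in the 3 LPS libraries. It was also the lowest for Rsad2, Cxcl10, Gbp5 and Nos2, and the highest for Cxcl1, Cxcl3 and Csf3. Il6, at 25.3, 15.99 and 48.3 FPKM, had the same order as Cxcl1. The summed mesothelial and fibroblast markers had that order too, at 108, 45.4 and 149.8 FPKM in the 3 LPS libraries, and their part in these genes was not tested. The medians of the interferon-induced antiviral genes, relative to the mock mean, were 3.05, 2.79 and 2.67, and those of the GTPases 4.56, 4.21 and 3.67. Without the third LPS library 948 genes were called higher and 2318 lower. Across genes, which are not independent replicates, pairs of libraries within a group had a Pearson r of 0.961 to 0.973 and pairs between groups 0.841 to 0.862.

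The cell type label was checked against markers. Macrophage markers summed to 13517 to 14829 FPKM without and 7317 to 9484 FPKM with LPS, mostly from Lyz2, while Itgam and Cd14 were not listed or at 0 in all 6 libraries. Of the 7 tested, 1 was called higher and 5 lower (1 higher and 1 lower after scaling), with a median log2 change of -0.76. Adgre1 (F4/80) was not called (log2 change 0.01). T and NK cell markers stayed at or below 0.805 FPKM in sum. B cell markers summed to 19.9 to 24.96 FPKM without and 4.48 to 8.05 FPKM with LPS, with Cd22 called lower (log2 change -2.096) and Pax5, Ebf1 and Ighm not listed or at 0. Dendritic cell markers summed to 0.0888 to 1.097 FPKM without and 4.01 to 6.27 FPKM with LPS, with Ccr7, a receptor that activated macrophages also make, called higher (log2 change 2.05) and Flt3, Xcr1, Clec9a and Itgae not listed or at 0. Mesothelial and fibroblast markers summed to 34.4 to 51.9 FPKM without and 45.4 to 149.8 FPKM with LPS. Of the 8 tested, 1 was called higher (3 higher and 0 lower after scaling), Dcn (log2 change 1.77). For intestinal markers the sums were 0.118 to 0.6697 and 0.0928 to 12.3 FPKM, for mast cell and eosinophil markers 5.86 to 7.22 and 1.78 to 6.03, for erythroid and platelet markers 244 to 278 and 123 to 270.1, and for resident macrophage markers 23.9 to 26.9 and 24.5 to 50.7 FPKM. The part of these cells in the results was not tested.

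The TLR4-WT response was set against that of the TLR4-K730R and TLR4-K810R mutants, in which a lysine of the TIR domain is replaced by arginine, only to show where it differs. The test was the interaction term of the same fit. Over the 9707 genes tested, 4 (0.0412%) differed in TLR4-K730R and 12 (0.124%) in TLR4-K810R. Among the 316 genes named by the rule, H2-M2 differed in TLR4-K730R, and H2-M2, Ccl5, Mt2 and Plac8 differed in TLR4-K810R. For the others no difference was called, which does not show that the responses were alike, and both differences share the TLR4-WT libraries.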

How the data were processed

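RNA was measured in 18 libraries, 3 mock-treated and 3 LPS-treated of each of 3 genotypes. The authors deposited a table per library of FPKM (fragments scaled to transcript length and to all mapped fragments) of transcript events with Ensembl gene numbers and coordinates that match GRCm38; the aligner and the counting tool are not given in the sources used here. The labels list a human build, which was not used. The TLR4-WT tables hold 81824 to 89258 rows, and read depth is unknown, so no counting interval can be given.

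First-exon and last-exon FPKM were summed per gene over the events that GENCODE M21 places in that gene and on its strand, which left out 4.67 to 9.19% of this FPKM, and the larger sum was the value. It was found for 13598 genes. Values were tested as log2(FPKM + 1) with limma 3.58.1 (R 4.3.3; empirical Bayes with an intensity trend) in one fit of all 18 libraries and 6 groups, for genes at 1 FPKM or more in 3 libraries, with Benjamini-Hochberg adjustment over 9707 genes and calls at an adjusted p below 0.01. Tables were joined with Python 3.11.15, pandas 2.3.3 and scipy 1.17.1. On simulated data for the TLR4-WT comparison (9707 genes, 200 changed), 60% of 2-fold and 92% of 4-fold changes were recovered and 1.1% of the calls were false. The changed genes were drawn from those well above 0 FPKM without LPS, and no other gene moved. In the data 34.3% of the genes were called, so these rates need not carry over.

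Named were the 20 largest called rises and the 20 largest called falls with a mean of at least 5 FPKM in the higher group, groups that did not overlap and first-exon and last-exon sums that each moved by at least 1 on the log2 scale (398 and 587 genes were eligible). For each list the rule took up to 4 called members per direction and the 3 of highest mean level. It added tested genes that the study names and cell type markers chosen for this report, 316 genes in all. The members and lists were chosen with earlier results of these data known. Same-numbered mock and LPS libraries had correlations of their deviations of -0.00297, 0.0522 and 0.0924, so the numbers were not taken to pair the libraries. Alternatives to the scaling, pseudocount, filter, samples, model and gene value were run, and each library was left out in turn.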

Additional observations from a re-analysis of the deposited data

Results flagged for a closer look

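The LPS response of 4 named genes differed between TLR4-WT and a mutant by limma's test of the interaction, with p-values adjusted over all 9707 genes. H2-M2, a class I-like gene, was listed at 16.4, 17.7 and 15.7 FPKM without LPS and 83.1, 91.1 and 87.3 FPKM with it in TLR4-WT, and all 3 LPS libraries were higher. Its log2 change was 2.32 in TLR4-WT against 4.10 in TLR4-K730R (difference 1.78, adjusted p = 0.00535, limma) and 4.98 in TLR4-K810R (difference 2.66, adjusted p = 0.000115, limma). Ccl5 had a log2 change of 6.77 in TLR4-WT and 8.56 in TLR4-K810R (difference 1.79, adjusted p = 0.000612, limma). For these 2 genes the TLR4-WT response was the smaller one.

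For the other 2 it was the larger one. Plac8, a gene of myeloid and plasmacytoid cells, was listed at 0.540, 0.897 and 0.736 FPKM without LPS and 23.5, 13.9 and 13.2 FPKM with it in TLR4-WT, a log2 change of 3.33 against -0.16 in TLR4-K810R (difference -3.49, adjusted p = 0.00124, limma). Mt2 had a log2 change of 3.13 in TLR4-WT and 0.83 in TLR4-K810R (difference -2.30, adjusted p = 0.00962, limma). The background was 4 genes (0.0412%) in TLR4-K730R and 12 genes (0.124%) in TLR4-K810R of all genes tested. The difference of H2-M2 in TLR4-K730R lost its call when any 1 of the 6 TLR4-WT libraries was left out. In TLR4-K810R 3 to 5 named genes differed without a single TLR4-WT library. There 0 differed without the second library of each group, mutants included. Groups of 3 libraries were not tested for outlying samples.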

How the results depend on the processing

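The counts of calls depended on the threshold, the scaling, the gene set and the libraries used. At an adjusted p below 0.05 there were 4599 calls (1321 higher, 3278 lower) and with array weights 3963 (1134 higher, 2829 lower), against 3328 (1012 higher, 2316 lower). After median-of-ratios scaling 1379 genes were lower, with a median over all genes of -0.017. With that scaling and events reassigned by position 1575 were higher and 1442 lower, with a median of -0.017. A minimum change of 2-fold left 1891 calls, 1211 of them lower. A limit to genes with both sums within 1.1 times of each other gave 1872 calls, 569 higher and 1303 lower, of 4534 tested. Leaving out a single TLR4-WT library, or a replicate number in all groups, gave 1802 to 3266 calls, 636 to 948 higher and 1166 to 2318 lower. Reassigning by position and the 1.1 times limit were chosen after seeing the data.

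The replicate numbers did not pair the libraries. With the replicate number as a block 3137 genes were called (968 higher, 2169 lower). The 6 TLR4-WT libraries alone gave 2480 calls (825 higher, 1655 lower), and with the block 1982, 1277 of them lower and 705 higher. Under the block in all 18 libraries 0 named genes differed in TLR4-K730R.

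The share of the summed FPKM of the top 100 rises went up by 9.10 percentage points, by 6.996 with first exons only and by 10.9 with last exons only, and by 8.86 to 9.41 without single libraries. The count of named genes that differed in TLR4-K730R, 1, was 0 with a pseudocount of 0.1, with no filter and with last exons only, 2 with array weights and at an adjusted p below 0.05, and 0 to 3 without libraries. In TLR4-K810R the count, 4, was 8 with array weights, 13 at an adjusted p below 0.05, 2 with first exons only, 7 with last exons only, and 0 to 6 without libraries. These differences could not be fitted in the TLR4-WT libraries alone.

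Named genes that changed sign included H2-K1, which went to -0.034 with last exons only. With all events of the gene number Olr1 went to -0.95 and Lgals4 to -1.08. The cause was not tested. Scaling moved the median over all genes from -0.276 to -0.017, so small falls of named genes can turn into rises under it. Such genes were not counted. Of the 35 list medians 10 changed sign under some setting, 5 of them under scaling, and the largest of these 10 medians in size before the change of setting was -0.254. Named genes had 2844 results without a TLR4-WT library or without a replicate number in all groups. Of these, 305 lost and 25 gained a call and 2514 kept their side of the threshold. Depth is unknown, so a low gene listed at 0 cannot be told from one that was not sampled.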
